A study of Homo sapiens with 6 samples.

Results

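PAX and non-HOX homeobox genes were followed in GLO1-knockout HEK293T cells that were kept overnight in 0.2 mM methylglyoxal (MGO) or left untreated. Members were chosen by name and a minimum count. A row was taken where its symbol had the form of PAX2, LHX1, SIX2, IRX3, DLX1, MSX1, EMX1, OTX1, CUX1, ZFHX3 or NKX2-1, each family with any gene number, and where its counts over all 6 libraries came to at least 10. Of the 56832 rows of each count table, 60 carried such a symbol and 53 met the rule. HEK293T is an established human embryonic kidney line that carries the SV40 large T antigen, and GLO1 encodes glyoxalase 1, which starts the removal of MGO, a reactive by-product of glycolysis. The MGO group held 3 libraries of knockout cells given 0.2 mM MGO overnight, numbered 1, 3 and 4. The untreated group held 3 libraries of the same knockout cells without MGO, numbered 1, 2 and 4. Both groups carry the GLO1 deletion, and libraries of cells with intact GLO1 were not analysed here. The sources used here do not say whether the knockout line is 1 clone or whether each library is its own culture. A p-value therefore speaks of the spread among these libraries alone, and that spread may be technical. The series title concerns glycation of histone H3 and the promoter mark H3K4me3, and the comparison asks how transcript levels differ with and without MGO.

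Homeobox genes encode transcription factors that bind DNA through a homeodomain, and PAX proteins bind through a paired domain as well or instead. In the embryo they set the identity of regions and organs. PAX2, SIX2 and LHX1 act in the early kidney, PAX6, OTX2, SIX3 and LHX2 in eye and forebrain, NKX2-5 in the heart, and DLX, MSX and PAX9 genes in face and teeth. Many lie beside a close relative on the chromosome, such as DLX1 with DLX2 and SIX2 with SIX3. Products of SIX2 and its relatives act with EYA and DACH cofactors, LIM-homeodomain (LHX) proteins bind the adaptor LDB1, and several proteins of the PAX, NKX and sine oculis (SIX2 and relatives) families recruit Groucho (TLE) corepressors.

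The libraries held 19195920, 19243453 and 21544749 counts in MGO, against 45050433, 45910040 and 41002134 counts in untreated cells, so MGO values rest on 0.455 times as many reads and depth was split as treatment was. Levels below are CPM, computed here from the counts with TMM scaling of library sizes. Values run in library order 1, 3 and 4 for MGO and 1, 2 and 4 for untreated cells. GLO1 itself stood at 134, 142 and 145 CPM in MGO, against 51.0, 46.9 and 46.2 CPM in untreated libraries, with a log2 fold change of 1.55 (adjusted p = 6.96e-25, edgeR), and without an intact line this does not check the deletion. Mitochondrial genes took 8.17%, 6.00% and 5.34% of counts in MGO, against 5.42%, 4.20% and 4.28% in untreated cells. All 8 HEK293T markers, of which PAX2 is also a member, were detected, with 3 called higher, 5 called lower and summed levels of 1595 to 1610 CPM in MGO and 1362 to 1407 CPM in untreated cells. Markers of other cells were low. Nephron epithelium markers, 8 genes with CDH16 and UMOD among those at 0 in every library, summed to 9.41 to 12.2 CPM in MGO and 21.1 to 22.1 CPM in untreated cells. The 5 fibroblast markers, with COL1A2 at 0, summed to 11.2 to 13.2 CPM in MGO and 23.7 to 25.1 CPM in untreated cells. The 4 endothelial markers stayed at or below 1.19 CPM in MGO and 1.70 CPM in untreated cells, and the 5 blood markers at or below 0.322 CPM in MGO and 0.334 CPM in untreated cells. The part of depth, mitochondrial share or these markers in the results below was not tested. In bulk RNA, fewer cells of a kind and less RNA per cell cannot be told apart.

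Most members fell with MGO, and a few of the most abundant per length rose. Of the 53 members, 51 passed the filter on low counts, and edgeR's quasi-likelihood test with Benjamini-Hochberg adjustment over all 17415 genes tested called 37 lower and 9 higher and did not call 5 at an adjusted p of 0.05. This is 72.5% lower and 17.6% higher, where 41.2% of all genes were called lower and 41.8% higher. In either direction 90.2% of the tested members and 83.1% of all genes were called. Of the members, 29 (56.9%) fell and 3 (5.88%) rose at least 2-fold, against 16.7% and 19.8% of all genes. The median log2 fold change was -1.12 over the members (quartiles -1.66 and -0.13), beside 0.01 over all genes tested (quartiles -0.67 and 0.75). The libraries of both groups did not overlap for 43 members (84.3%), where 83.5% of all genes did not overlap. MGO was the lower group in 35 of them and the higher one in 8, where it was lower without overlap for 41.7% and higher without overlap for 41.8% of all genes.

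Some members reached the filter through 1 group only, which favours a difference between the groups. PAX1, PAX5, LHX8 and NKX2-3 passed through the untreated libraries, and IRX4 passed through the MGO libraries. All of these genes are also among the members counted above as changed at least 2-fold. Among the 46 members that passed in both groups, 33 were lower, 8 higher and 5 not called. LHX3 and LHX5 were not tested, with 28 and 16 counts in all. The next members above the total of 10 were PAX5 with 89, IRX4 with 91 and LHX8 with 135 counts. Below it lay PAX8 with 6, PAX4 with 2, IRX2, NKX1-1, NKX2-6 and NKX6-3 with 1 each, and IRX1 with 0. PAX8, a kidney and thyroid factor, had 0 counts in every MGO library and 2 in each untreated library, which does not show whether it differed at this depth.

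**Figure D1:**
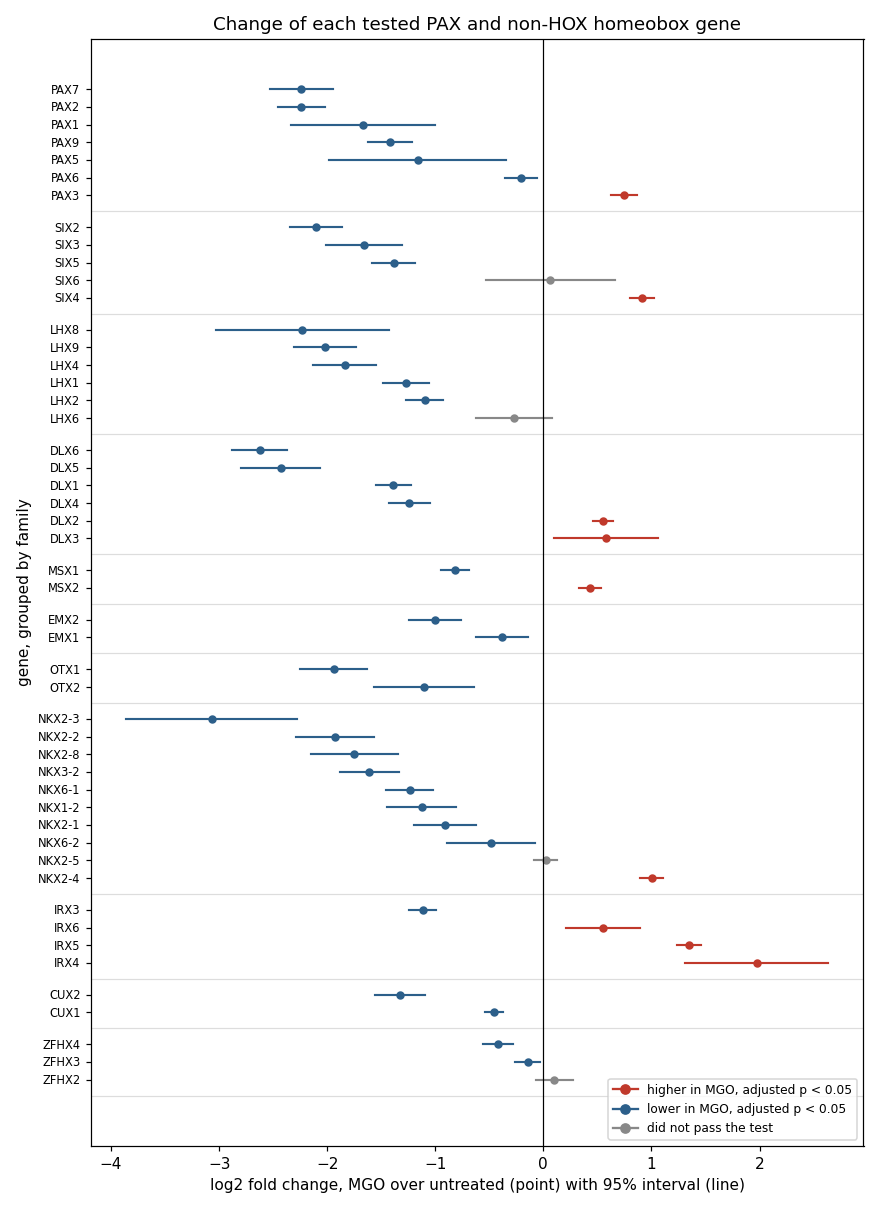
Log2 fold change, MGO over untreated, of each of 49 tested members (point) with its 95% interval (line), grouped by family down the page. The 36 members drawn as lower lie left of 0, the 9 drawn as higher lie right of it, and 4 intervals cross 0.

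Summed over all members, levels came to 619 CPM in MGO and 735 CPM in untreated cells, a ratio nearer to 1 than that of the median member. Per kilobase of exon, the highest members in MGO were DLX2 at 24.1, MSX2 at 22.8, NKX2-4 at 19.5 and NKX2-5 at 15.3 CPM per kb. In untreated cells the order was MSX2 at 16.9, DLX2 at 16.4, NKX2-5 at 15.0 and MSX1 at 12.5 CPM per kb. Of these, MSX1, at 7.07 CPM per kb in MGO, left the first 4, while NKX2-4 entered it from 9.71 CPM per kb in untreated cells. IRX5 stood at 15.1 CPM per kb in MGO and 5.92 CPM per kb in untreated cells.

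**Figure D2:**
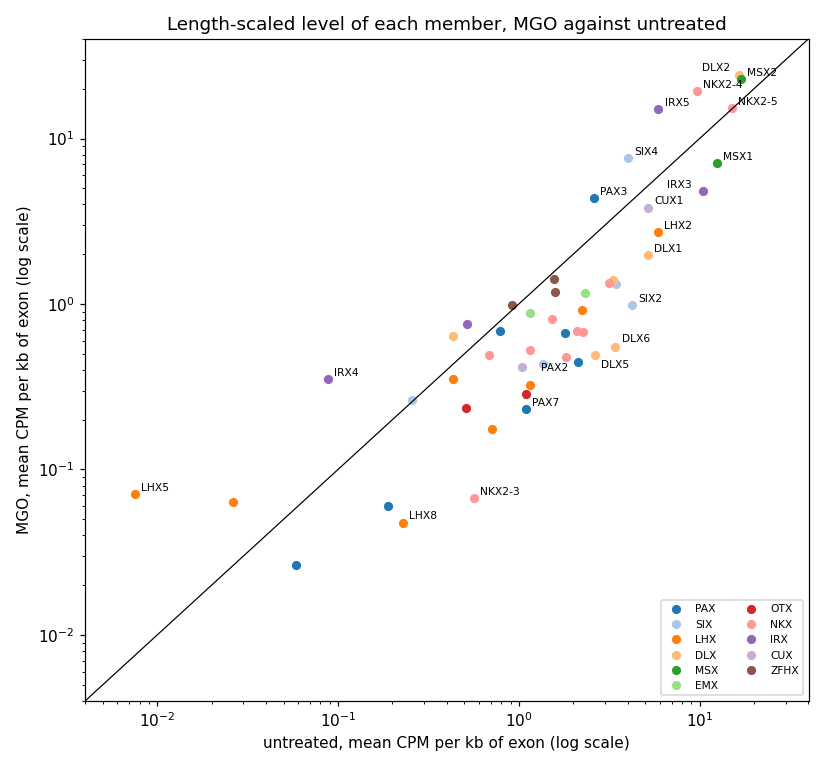
Mean level of each of 51 members in MGO (vertical axis) against untreated cells (horizontal axis), in CPM per kilobase of exon on log scales, coloured by family, with a line where both are equal. DLX2, MSX2, NKX2-4, IRX5, SIX4 and PAX3 lie above the line at the high end, and most of the others lie below it.

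Ratios are given for 10 pairs of tested members adjacent on a chromosome within 1 Mb. In 4 of them 1 gene was called higher and its neighbour lower. Of these, DLX3 overlapped between the groups and lost its call under several alternatives. The ratio of a pair's counts within 1 library does not depend on scaling or depth, and it is given here first for those 4 pairs. NKX2-4 had 48.9, 45.1 and 38.0 counts for each count of NKX2-2 in MGO, against 5.95, 5.15 and 6.05 in untreated libraries. These genes lie 113 kb apart on chromosome 20, and the MGO ratios rest on 16, 19 and 23 counts of NKX2-2. IRX5 to IRX3, 644 kb apart on chromosome 16, was 2.86, 3.33 and 2.96 in MGO, against 0.530, 0.553 and 0.573 in untreated libraries. IRX5 was thus the less counted of the pair in every untreated library and the more counted in every MGO library. DLX2 to DLX1, 9.76 kb apart on chromosome 2, was 10.8, 9.49 and 9.51 in MGO, against 2.53, 2.50 and 2.69 in untreated libraries. DLX3 to DLX4, 15.0 kb apart on chromosome 17, was 0.237, 0.366 and 0.438 in MGO, against 0.0658, 0.118 and 0.108 in untreated libraries. The ratios of the groups did not overlap in 8 of the 10 pairs. Each of these had a two-sided exact permutation p of 0.1 (n = 3 each), the smallest that 3 against 3 allows. After adjustment over the 10 pairs it was 0.125. A pair had to stand apart where 1 gene rose and the other fell, each without overlap. This held for NKX2-4 and NKX2-2, IRX5 and IRX3, and DLX2 and DLX1. Among all genes tested, 83.5% did not overlap between the groups, and the share for other neighbouring pairs was not computed. The gene with the higher log2 fold change was put first, so folds above 1 follow from that order. The ratio of geometric means moved 7.68-fold for NKX2-4 to NKX2-2, 5.52-fold for IRX5 to IRX3, 3.86-fold for DLX2 to DLX1 and 3.56-fold for DLX3 to DLX4.

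**Figure D3:**
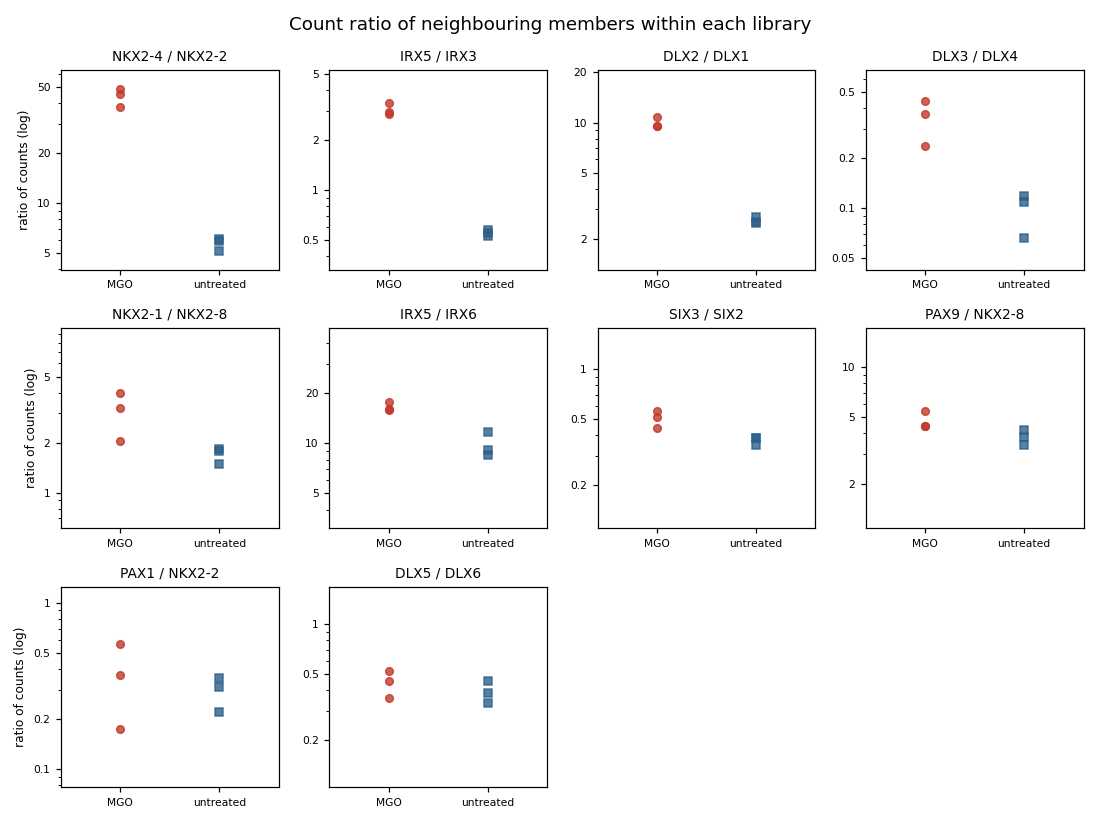
Ratio of the counts of 2 neighbouring members within each library, 1 panel a pair, with MGO libraries (circles) left of untreated libraries (squares) and a log vertical axis that spans the same fold in every panel. The groups stand apart in 8 of the 10 panels and overlap for PAX1 to NKX2-2 and for DLX5 to DLX6.

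In 5 pairs both genes fell. The DLX5 to DLX6 ratio overlapped between the groups, as did that of PAX1 to NKX2-2. SIX3 to SIX2, PAX9 to NKX2-8 and NKX2-1 to NKX2-8 stood apart by 1.35-fold, 1.26-fold and 1.76-fold. IRX5 to IRX6, in which both genes rose, differed 1.71-fold. Promoter windows of 2 oppositely changed pairs are printed to show what lies at their start sites, from the RefSeq table on GRCh38.p14 (250 bases before to 50 after the start, 5′ to 3′ on the gene's strand). Capitals mark each match to the TATA box (TATAAA), the CCAAT box, the GC box (GGGCGG) and a homeodomain core (TAATTA), searched on both strands with overlaps allowed. A match on the other strand appears as its reverse complement. The window of DLX1 is chr2:172085257-172085556 (plus strand) and that of DLX2 is chr2:172102851-172103150 (minus strand). The window of NKX2-4 is chr20:21397477-21397776 (minus strand) and that of NKX2-2, the RefSeq start nearest to the annotated gene start, is chr20:21512911-21513210 (minus strand).
DLX2: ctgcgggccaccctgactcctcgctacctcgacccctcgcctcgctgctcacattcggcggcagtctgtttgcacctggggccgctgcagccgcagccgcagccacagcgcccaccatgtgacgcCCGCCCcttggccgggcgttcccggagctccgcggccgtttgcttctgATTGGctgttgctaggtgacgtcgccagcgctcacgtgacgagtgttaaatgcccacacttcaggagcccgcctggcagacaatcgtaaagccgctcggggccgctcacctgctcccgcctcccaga
DLX1: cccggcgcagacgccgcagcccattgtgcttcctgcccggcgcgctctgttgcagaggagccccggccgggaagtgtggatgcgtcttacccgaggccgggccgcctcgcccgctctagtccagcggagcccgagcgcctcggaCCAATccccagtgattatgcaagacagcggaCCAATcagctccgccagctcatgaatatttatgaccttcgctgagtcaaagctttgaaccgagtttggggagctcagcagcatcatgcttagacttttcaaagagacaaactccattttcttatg
NKX2-4: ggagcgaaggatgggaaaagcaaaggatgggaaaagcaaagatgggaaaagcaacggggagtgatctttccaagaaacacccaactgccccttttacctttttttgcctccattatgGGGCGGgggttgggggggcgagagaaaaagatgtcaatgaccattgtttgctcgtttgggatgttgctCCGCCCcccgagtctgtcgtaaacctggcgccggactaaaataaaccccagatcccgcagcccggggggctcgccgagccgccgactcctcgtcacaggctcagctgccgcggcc
NKX2-2: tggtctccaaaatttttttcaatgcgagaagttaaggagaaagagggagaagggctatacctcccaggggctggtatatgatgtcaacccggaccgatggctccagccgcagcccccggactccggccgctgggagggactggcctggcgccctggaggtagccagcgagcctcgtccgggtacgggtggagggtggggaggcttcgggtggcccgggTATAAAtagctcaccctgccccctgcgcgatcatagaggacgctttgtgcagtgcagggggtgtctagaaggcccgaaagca

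The DLX2 window holds 30 CpG and the DLX1 window 23, and each has 2 motif matches. The NKX2-4 window holds 19 CpG and 2 GGGCGG matches, and the NKX2-2 window 18 CpG and 1 TATAAA match. Windows were listed for 36 of the 53 members, 62 windows in all. TATAAA was in 4 (6.45%) of the members' windows, 6.58% of the 15980 windows of tested genes and 11.5% of all 35116 windows. CCAAT was in 45.2% of the members' windows, 34.1% of those of tested genes and 34.6% of all. GGGCGG was in 56.5% of the members' windows, fewer than the 65.2% of those of tested genes and more than the 45.0% of all. TAATTA, a core bound by many homeodomains, was in 4 (6.45%) of the members' windows, 2.52% of those of tested genes and 4.84% of all. The observed to expected CpG ratio had a median of 0.943 in members that rose (8 windows of 6 genes). It was 0.702 in members that fell (46 windows of 26 genes) and 0.755 in all windows of members. A gene with several listed starts counts once for each window. The ratio was 0.804 in windows of tested genes and 0.579 in all windows. The median window of members that fell thus lay below that of tested genes and above that of all windows. These matches are letters in a window and not measured binding sites.

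Transcript structure was a further property that the choice by name did not use. The tested members were compact genes, with a median span of 7001 bases and 3 exons, against 33637.5 bases and 9 exons over the 13476 tested genes with these features. Members that rose and members that fell had 3 exons each at the median and spans of 6361 and 7780 bases. The 3′ UTR had a median of 1104 bases in members that rose and 1302 bases in members that fell, and ATTTA occurred 2.72 and 1.37 times per kilobase of it, beside 1.55 over all tested genes. These are descriptions of 9 and 37 genes with no test.

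Among the PAX genes, 6 fell and PAX3 rose. PAX2, which drives formation of the nephric duct and the kidney, stood at 2.49, 2.85 and 2.99 CPM in MGO, against 12.9, 12.5 and 14.1 CPM in untreated libraries. All MGO libraries lay far below all untreated ones, a fall of 4.72-fold (log2 fold change -2.24, SE 0.11, adjusted p = 1.58e-18, edgeR). PAX7, a factor of muscle stem cells and neural crest, had 1.49, 1.72 and 1.19 CPM in MGO, against 7.20, 6.67 and 6.81 CPM in untreated libraries, and its log2 fold change was also -2.24. PAX3, its closest relative and a neural crest and muscle factor, went the other way with 36.9, 35.5 and 31.7 CPM in MGO, against 20.4, 19.6 and 22.0 CPM in untreated libraries. The groups did not overlap (log2 fold change 0.75, SE 0.061, adjusted p = 9.82e-13, edgeR). PAX9, needed for teeth and thymus, stood at 4.42, 3.60 and 4.13 CPM in MGO, against 10.4, 10.8 and 11.2 CPM in untreated libraries, again without overlap (log2 fold change -1.42, SE 0.10, adjusted p = 3.31e-14, edgeR). PAX1, which patterns the vertebral column, had 0.497, 0.376 and 0.190 CPM in MGO, against 1.29, 0.919 and 1.13 CPM in untreated libraries (log2 fold change -1.67), with 1 MGO library under the filter. PAX6, a factor of eye, brain and pancreas, had 14.8, 15.0 and 12.9 CPM in MGO, against 15.3, 17.0 and 16.8 CPM in untreated libraries. Its groups lay next to each other without overlap and the change was small (log2 fold change -0.21, SE 0.073, adjusted p = 0.0103, edgeR). PAX5, the B-cell factor, averaged 0.245 ± 0.076 CPM in MGO and 0.545 ± 0.107 CPM in untreated cells (SD, n = 3 each, log2 fold change -1.16). It passed the filter through the untreated libraries alone. PAX6 was not called with the replicate number as a block, with 1 CPM required in every library or with thinned untreated libraries. PAX5 was not called with the block or in DESeq2 and was not among the calls with thinned untreated libraries. It lay below 1 CPM in every library, so the filter of 1 CPM left it untested.

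**Figure D4:**
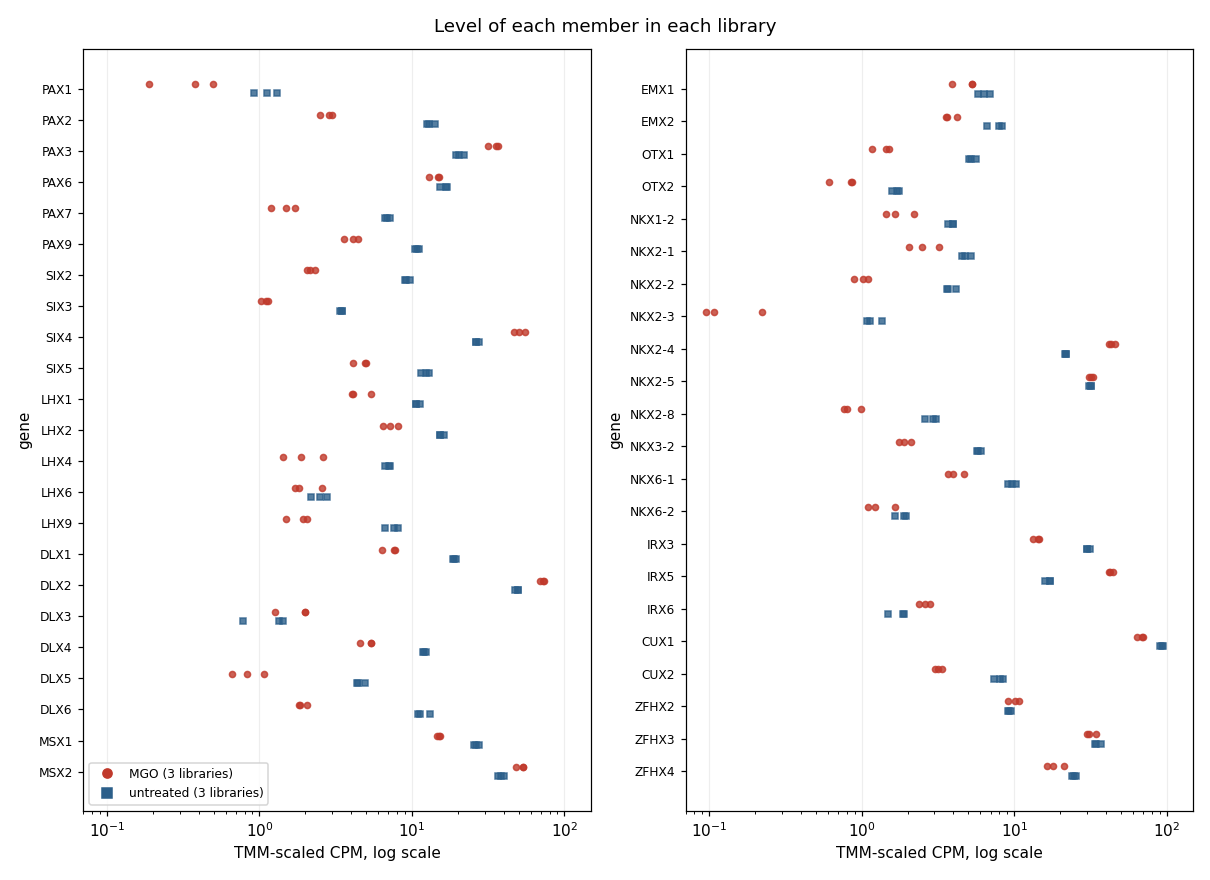
Level of each of 45 members with a mean of at least 1 CPM in either group, in TMM-scaled CPM on a log axis, with the 3 MGO libraries (circles) drawn above the 3 untreated libraries (squares) for each gene. PAX2, SIX2, DLX6 and NKX2-3 have every MGO library to the left of every untreated library, and PAX3, SIX4, NKX2-4 and IRX5 to the right.

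Among SIX2 and its relatives, SIX2, SIX3 and SIX5 fell, SIX4 rose and SIX6 was not called. SIX2, which keeps nephron progenitors undifferentiated, had 2.16, 2.31 and 2.04 CPM in MGO, against 9.03, 9.69 and 9.16 CPM in untreated libraries, a fall of 4.29-fold (log2 fold change -2.10, SE 0.12, adjusted p = 8.99e-17, edgeR). SIX3, of the forebrain and eye, had 1.11, 1.02 and 1.14 CPM in MGO, against 3.49, 3.36 and 3.50 CPM in untreated libraries, and SIX5, the neighbour of DMPK, had 5.03, 4.13 and 4.89 CPM in MGO, against 11.4, 12.3 and 13.0 CPM in untreated libraries. Both fell in every MGO library relative to every untreated one, by log2 fold changes of -1.66 and -1.38. SIX4, a relative expressed in muscle and sense-organ progenitors, had 54.9, 50.4 and 46.4 CPM in MGO, against 26.4, 27.6 and 26.2 CPM in untreated libraries, and every MGO library stood above every untreated one (log2 fold change 0.92, SE 0.054, adjusted p = 3.69e-16, edgeR). SIX6, an eye and pituitary factor, averaged 0.729 ± 0.284 CPM in MGO and 0.711 ± 0.064 CPM in untreated cells (SD, n = 3 each), and its log2 fold change of 0.07 had a 95% interval from -0.53 to 0.66. A difference was not detectable at this depth.

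Known partners of these factors mostly fell, where 41.2% of all genes tested were called lower and 41.8% higher. Of the 5 tested EYA and DACH genes, 4 fell and 1 rose, with a median log2 fold change of -0.55. DACH1, a corepressor that binds EYA proteins, averaged 13.1 ± 1.10 CPM in MGO and 40.1 ± 1.68 CPM in untreated cells, a log2 fold change of -1.62. EYA2, a phosphatase coactivator, averaged 7.58 ± 0.383 CPM in MGO and 13.5 ± 0.396 CPM in untreated cells (-0.84 on the log2 scale). EYA1 averaged 6.22 ± 0.455 CPM in MGO and 8.49 ± 0.907 CPM in untreated cells and EYA4 28.9 ± 1.06 CPM in MGO and 42.5 ± 2.17 CPM in untreated cells, log2 fold changes of -0.45 and -0.55. EYA3 rose instead and averaged 49.6 ± 2.18 CPM in MGO and 26.9 ± 1.248 CPM in untreated cells (log2 fold change 0.88, SE 0.051, adjusted p = 2.48e-16, edgeR). DACH2, with no more than 1 count in a library, was not tested.

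The LIM-homeodomain genes fell, 5 of the 6 tested, where 41.2% of all genes tested were called lower and 41.8% higher. The LHX family sum was 18.2 CPM in MGO and 44.3 CPM in untreated cells. LHX9, a gonad and brain factor, had 1.93, 1.503 and 2.04 CPM in MGO, against 6.66, 8.04 and 7.66 CPM in untreated libraries, a fall of 4.06-fold (log2 fold change -2.02, SE 0.14, adjusted p = 1.72e-14, edgeR). LHX4, a pituitary and motor neuron factor, had 2.60, 1.88 and 1.43 CPM in MGO, against 6.62, 7.19 and 7.07 CPM in untreated libraries, and no library of either group reached into the other (log2 fold change -1.84, SE 0.14, adjusted p = 3.7e-13, edgeR). LHX1, needed for the head and the nephric duct, had 5.42, 4.03 and 4.09 CPM in MGO, against 10.7, 10.6 and 11.3 CPM in untreated libraries, with a log2 fold change of -1.27. LHX2, of the eye and cerebral cortex, had 7.18, 6.44 and 8.08 CPM in MGO, against 16.1, 15.2 and 15.3 CPM in untreated libraries (-1.10 on the log2 scale). LHX8, a factor of forebrain neurons and oocytes, averaged 0.190 ± 0.024 CPM in MGO and 0.911 ± 0.215 CPM in untreated cells (SD, n = 3 each, log2 fold change -2.23). LHX8 passed the filter through the untreated libraries alone. LHX6, which specifies cortical interneurons, had 1.71, 1.83 and 2.57 CPM in MGO, against 2.78, 2.17 and 2.51 CPM in untreated libraries. Its groups overlapped, and the 95% interval of its log2 fold change (-0.27) ran from -0.63 to 0.08. It was called lower without MGO library 4 (log2 fold change -0.53, adjusted p = 0.0158, edgeR), with library size scaling (adjusted p = 0.0467) and with no filter (adjusted p = 0.0169), and its adjusted p ranged from 0.0158 to 1 over the alternatives. LHX3 had 5, 5 and 4 counts in MGO, against 5, 7 and 2 counts in untreated libraries, and LHX5 had 1, 7 and 5 counts in MGO, against 0, 0 and 3 counts in untreated libraries, and neither passed the filter. With no filter and in DESeq2, both genes were tested and LHX5 was called higher.

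Other LIM-homeodomain genes and genes that work with LIM-homeodomain proteins fell as well, 9 of 11 tested. Over all genes tested, 41.2% were called lower and 41.8% higher. Among these 11 genes 1 rose and 1 was not called, and the median log2 fold change was -1.06. ISL1, a LIM-homeodomain factor of motor neurons and heart progenitors, averaged 1.47 ± 0.239 CPM in MGO and 9.99 ± 0.0929 CPM in untreated cells (log2 fold change -2.76, SE 0.13, adjusted p = 6.88e-19, edgeR), while ISL2 rose and averaged 24.3 ± 0.934 CPM in MGO and 12.04 ± 0.353 CPM in untreated cells (log2 fold change 1.01, SE 0.063, adjusted p = 1.37e-15, edgeR). LMX1B, of limb, kidney podocytes and midbrain, averaged 7.94 ± 0.904 CPM in MGO and 31.1 ± 1.64 CPM in untreated cells (log2 fold change -1.98). LMX1A averaged 0.192 ± 0.0670 CPM in MGO and 0.365 ± 0.0764 CPM in untreated cells and did not pass the test (log2 fold change -0.93, adjusted p = 0.0646). The adaptor LDB1 averaged 58.1 ± 1.14 CPM in MGO and 78.5 ± 1.01 CPM in untreated cells (-0.43 on the log2 scale), a smaller fall than those of most LHX genes. LMO4, a LIM-only protein that competes for LDB1, averaged 36.1 ± 1.20 CPM in MGO and 104 ± 1.69 CPM in untreated cells, and the log2 fold changes of LMO1, LMO2 and LMO4 were -1.99, -1.97 and -1.53. SSBP2, SSBP3 and SSBP4, which stabilise LDB1, changed by -0.51, -0.81 and -1.06 on the log2 scale. LDB2 and LMO3 had at most 1 count in all and were not tested.

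DLX genes come in neighbouring pairs, and 4 fell while 2 rose. DLX6, a jaw and limb factor, had 1.82, 2.04 and 1.85 CPM in MGO, against 11.3, 10.9 and 13.2 CPM in untreated libraries, a fall of 6.17-fold (log2 fold change -2.63, SE 0.13, adjusted p = 1.6e-18, edgeR). DLX5, its neighbour and partner in the same tissues, had 0.829, 1.07 and 0.665 CPM in MGO, against 4.38, 4.95 and 4.44 CPM in untreated libraries, a fall of 5.39-fold (log2 fold change -2.43, SE 0.18, adjusted p = 9.42e-14, edgeR). No library of one group reached into the other for either gene. DLX1, a factor of forebrain interneurons, had 6.35, 7.73 and 7.65 CPM in MGO, against 19.6, 18.8 and 18.6 CPM in untreated libraries (log2 fold change -1.39), and DLX4, expressed in placenta, had 5.36, 5.42 and 4.56 CPM in MGO, against 11.8, 11.99 and 12.4 CPM in untreated libraries (log2 fold change -1.24). DLX2, which acts with DLX1 in forebrain interneurons, had 68.7, 73.3 and 72.7 CPM in MGO, against 49.5, 47.1 and 49.98 CPM in untreated libraries, and all MGO libraries stood above all untreated ones (log2 fold change 0.55, SE 0.044, adjusted p = 4.96e-13, edgeR). DLX3, of skin, hair and tooth enamel, had 1.27, 1.99 and 2.00 CPM in MGO, against 0.776, 1.42 and 1.34 CPM in untreated libraries. MGO library 1 lay below untreated libraries 2 and 4, the adjusted p was 0.024 in edgeR, and the call was lost without MGO library 3 or 4, without untreated library 1, with library size scaling, with no filter and in DESeq2.

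MSX, EMX and OTX genes are relatives that pattern the head. MSX1, whose mutation causes missing teeth, had 15.4, 14.5 and 15.1 CPM in MGO, against 26.4, 25.4 and 27.5 CPM in untreated libraries, and fell (log2 fold change -0.82, SE 0.063, adjusted p = 2.38e-13, edgeR). MSX2, a skull and skin-appendage factor that overlaps with MSX1 in function, had 53.9, 53.3 and 48.3 CPM in MGO, against 36.8, 38.5 and 40.1 CPM in untreated libraries, and rose (log2 fold change 0.43, SE 0.050, adjusted p = 3.51e-09, edgeR). Neither gene's groups overlapped, and the family sum was 66.8 CPM in MGO and 64.9 CPM in untreated cells. EMX2, needed for the cortex and the urogenital tract in mice, had 4.20, 3.65 and 3.56 CPM in MGO, against 7.96, 6.60 and 8.31 CPM in untreated libraries (log2 fold change -1.003). EMX1, a cortical factor, had 3.92, 5.26 and 5.32 CPM in MGO, against 6.34, 5.79 and 6.93 CPM in untreated libraries, a smaller fall with no overlap (log2 fold change -0.38, SE 0.12, adjusted p = 0.00342, edgeR). OTX1, of cortex and sense organs, had 1.16, 1.45 and 1.52 CPM in MGO, against 5.65, 5.22 and 5.07 CPM in untreated libraries, a fall of 3.83-fold (log2 fold change -1.94, SE 0.15, adjusted p = 3.33e-13, edgeR). OTX2, which forms the anterior brain and the eye, had 0.608, 0.859 and 0.855 CPM in MGO, against 1.57, 1.69 and 1.76 CPM in untreated libraries (log2 fold change -1.10). The OTX family sum was 2.15 CPM in MGO and 6.99 CPM in untreated cells.

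Most NKX genes fell, and NKX2-4 rose. NKX2-3, a factor of gut and spleen, had 0.221, 0.107 and 0.0950 CPM in MGO, against 1.36, 1.09 and 1.13 CPM in untreated libraries, which is 4, 2 and 2 counts in MGO and 63, 52 and 48 counts in untreated libraries. The log2 fold change was the lowest of the tested members (log2 fold change -3.07, SE 0.39, adjusted p = 1.54e-08, edgeR). NKX2-3 passed the filter through the untreated libraries alone, which favours a fall, so its rank partly rests on the filter. Among members that passed in both groups, DLX6 had the lowest log2 fold change (-2.63). NKX2-2, of the ventral spinal cord and pancreatic islets, had 0.884, 1.02 and 1.09 CPM in MGO, against 3.67, 4.18 and 3.62 CPM in untreated libraries, a fall of 3.80-fold (log2 fold change -1.93, SE 0.18, adjusted p = 1.55e-11, edgeR). NKX2-8 had 0.995, 0.805 and 0.760 CPM in MGO, against 3.06, 2.59 and 2.94 CPM in untreated libraries, and its log2 fold change was -1.75. NKX2-1, the thyroid and lung factor, had 2.04, 3.22 and 2.47 CPM in MGO, against 4.57, 4.76 and 5.21 CPM in untreated libraries (log2 fold change -0.91, SE 0.14, adjusted p = 7.14e-07, edgeR). The MGO libraries of these genes all lay below the untreated ones. NKX2-4, the closest relative of NKX2-1, had 43.2, 46.0 and 41.6 CPM in MGO, against 21.8, 21.5 and 21.9 CPM in untreated libraries, and rose 2.00-fold (log2 fold change 1.003, SE 0.053, adjusted p = 1.57e-17, edgeR). NKX2-5, the cardiac factor, had 32.1, 30.9 and 32.9 CPM in MGO, against 31.9, 30.8 and 31.8 CPM in untreated libraries. Its groups overlapped, and the log2 fold change of 0.02 had a 95% interval from -0.08 to 0.13.

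Beyond the NKX2 genes, NKX1-2, NKX3-2 and both NKX6 genes fell. NKX3-2, a cartilage factor, had 1.77, 2.09 and 1.90 CPM in MGO, against 6.08, 5.81 and 5.71 CPM in untreated libraries, a fall of 3.05-fold (log2 fold change -1.61, SE 0.13, adjusted p = 1.66e-12, edgeR). NKX6-1, of pancreatic beta cells and motor neurons, had 4.70, 3.97 and 3.71 CPM in MGO, against 9.72, 10.2 and 9.07 CPM in untreated libraries (log2 fold change -1.24), and NKX1-2 had 2.21, 1.45 and 1.66 CPM in MGO, against 3.95, 3.70 and 3.95 CPM in untreated libraries (log2 fold change -1.13). None of these 3 genes' groups overlapped. NKX6-2, a factor of myelinating glia, had 1.22, 1.66 and 1.09 CPM in MGO, against 1.90, 1.96 and 1.64 CPM in untreated libraries, with 1 MGO library just above the lowest untreated one. Its adjusted p was 0.027 in edgeR, and the call was lost without MGO library 1 or 4, without untreated library 1 or 2, without both libraries numbered 1, in DESeq2 and with thinned untreated libraries.

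Of the 4 tested IRX genes, 3 rose and 1 fell. The filter favoured 1 of the rises, that of IRX4, which passed through the MGO libraries alone. IRX5, of heart and retina, had 41.9, 44.2 and 42.3 CPM in MGO, against 16.0, 17.3 and 17.3 CPM in untreated libraries, a rise of 2.54-fold (log2 fold change 1.35, SE 0.055, adjusted p = 1.81e-20, edgeR). IRX3, which shares a cluster with IRX5 and IRX6 beside FTO, had 14.6, 13.3 and 14.3 CPM in MGO, against 30.2, 31.2 and 30.1 CPM in untreated libraries, a fall of 2.17-fold (log2 fold change -1.12, SE 0.062, adjusted p = 6.28e-17, edgeR). The groups stood apart for both genes. IRX6 had 2.60, 2.79 and 2.38 CPM in MGO, against 1.88, 1.90 and 1.48 CPM in untreated libraries, a small rise without overlap (log2 fold change 0.55, SE 0.17, adjusted p = 0.0032, edgeR). That call was lost with no filter on low counts (adjusted p = 0.0671) and in DESeq2 (adjusted p = 0.0614). IRX4, a factor of the heart ventricle on chromosome 5, averaged 0.997 ± 0.206 CPM in MGO and 0.248 ± 0.048 CPM in untreated cells (SD, n = 3 each), from 22, 18 and 17 counts in MGO, against 14, 11 and 9 counts in the deeper untreated libraries. Its log2 fold change was 1.98 (SE 0.32, adjusted p = 1.87e-06, edgeR). The family sum was 60.5 CPM in MGO and 49.4 CPM in untreated cells.

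CUX and ZFHX genes encode large proteins with several DNA-binding domains, and 4 of the 5 members differed less than 1.5-fold between the groups. CUX1, a broadly expressed repressor and cell-cycle factor, had 70.0, 64.2 and 68.5 CPM in MGO, against 92.6, 94.3 and 90.8 CPM in untreated libraries, a fall of 1.37-fold with no overlap (log2 fold change -0.45, SE 0.041, adjusted p = 1.11e-11, edgeR). CUX2, of upper-layer cortical neurons, had 3.15, 3.38 and 3.04 CPM in MGO, against 7.42, 8.13 and 8.39 CPM in untreated libraries, and fell 2.50-fold (log2 fold change -1.32, SE 0.11, adjusted p = 3.24e-12, edgeR). ZFHX4 had 21.2, 16.4 and 18.0 CPM in MGO, against 23.9, 25.4 and 24.8 CPM in untreated libraries, also without overlap (log2 fold change -0.42). ZFHX3, of circadian and neuronal differentiation, had 34.4, 30.2 and 31.0 CPM in MGO, against 37.1, 34.5 and 33.9 CPM in untreated libraries. Its groups overlapped, and its adjusted p of 0.0183 in edgeR was lost without MGO library 3, without untreated library 1, with the replicate block, with 1 CPM required in every library and with thinned untreated libraries. ZFHX2 had 9.06, 10.7 and 10.1 CPM in MGO, against 9.51, 9.19 and 9.09 CPM in untreated libraries. It was not called, and the 95% interval of its log2 fold change (0.10) ran from -0.07 to 0.27.

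Cofactors shared by several of these families were also lower more often than higher, where 41.2% of all genes tested were called lower and 41.8% higher. Of the 6 tested Groucho genes, 5 fell and TLE2 was not called. Their median log2 fold change of -0.23 lay within the quartiles of all genes tested (-0.67 and 0.75). TLE1 averaged 42.5 ± 1.88 CPM in MGO and 86.9 ± 2.401 CPM in untreated cells (-1.03 on the log2 scale), and the short form AES, TLE4 and TLE6 changed by -0.23, -0.23 and -0.77. Of the 7 tested genes that act with PAX proteins, 5 fell and 2, DAXX and HIPK1, rose, with a median of -0.56. DAXX, a histone chaperone that binds PAX3, averaged 173 ± 3.88 CPM in MGO and 68.5 ± 2.01 CPM in untreated cells and rose (log2 fold change 1.34, SE 0.039, adjusted p = 3.54e-24, edgeR). WWTR1 (TAZ), a coactivator of PAX3, averaged 23.3 ± 0.493 CPM in MGO and 46.7 ± 2.44 CPM in untreated cells, the kinase HIPK2 69.8 ± 3.75 CPM in MGO and 109 ± 6.83 CPM in untreated cells, and PAGR1, a subunit of the PAXIP1 complex, 5.01 ± 0.309 CPM in MGO and 10.3 ± 0.359 CPM in untreated cells, with log2 fold changes of -1.003, -0.65 and -1.03. Over the EYA and DACH, LIM, Groucho and PAX lists together, 23 of 29 tested genes fell, 4 rose and 2 were not called. The median log2 fold change was -0.65, beside 0.01 over all genes. These lists hold LIM-homeodomain factors such as ISL1 and ISL2 as well as cofactors.

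Reads of some members may be counted with those of genes on the other strand. The strand setting of the count step is not stated in any source at hand. In GENCODE release 29, 19 members share exon bases with a gene on the opposite strand, and for 7 of them that gene has a row of its own in the tables. EMX2 shares 255 exon bases with EMX2OS, which had 31, 30 and 29 counts in MGO, against 239, 271 and 240 counts in untreated libraries. PAX6 shares 5241 with ELP4, LHX4 shares 1866 with ACBD6, and PAX9 shares 481 with SLC25A21. Values of these members are uncertain in that respect, and its part in them was not tested.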

How the data were processed

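Poly(A) RNA from 6 libraries of HEK293T GLO1KO cells (3 MGO, 3 untreated) was sequenced. The authors deposited whole-number counts by gene symbol, 56832 rows for each library, with no normalization. Per the submitters' processing notes, HTSeq 0.9.1, STAR 2.4, Trim Galore and Picard were used (no order or role is given), with build hg38. Settings, annotation and strandedness of these steps: not given in the sources used here. Dates stood in place of symbols in 29 rows (0.178% to 0.242% of counts), and 4 rows repeated a name. Neither kind holds a member, though both stayed in the test.

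Counts were tested in R 4.3.3 with edgeR 4.0.16 (filterByExpr with a minimum count of 10, here about 0.320 CPM, TMM scaling, robust glmQLFit, two-sided glmQLFTest, 4 residual degrees of freedom), with Benjamini-Hochberg adjustment over 17415 genes and a threshold of 0.05. Each SE was taken as the absolute log2 fold change over the root of F, and intervals are 95%. CPM, CPM per kb of exon (GENCODE release 29, 53 members and 14130 tested genes matched by symbol) and ratios were computed here. Neighbour ratios used an exact permutation test (scipy 1.17.1). Every member with a mean of at least 1 CPM in either group is given by library, other tested members by mean, and members under the filter by total. From each other list up to 4 called genes with the smallest p are named, and all EYA, DACH and LIM partners. Some genes that this rule takes, and the neighbour pairs and figure points that hold them, are left out, but stay in all counts over members and lists. Genes named to complete a count of 5 or fewer were chosen after their values were seen. Members and lists were chosen with earlier results of these data known.

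The alternatives were RLE or library size scaling, no filter, 1 CPM in every library, limma 3.58.1 voom, DESeq2 1.42.0, each library left out, the replicate number as a block, a test against a fold of 1.5 and untreated libraries thinned to the MGO depth. A fit that drops library 1 of each group, the one with the most mitochondrial counts there, was added after seeing the data. Over genes, the chi-square per degree of freedom between libraries of a group was 3.43 to 14.7 in MGO and 1.88 to 6.99 in untreated cells, so no pair agreed within sampling noise. On simulated counts (16160 genes tested), the test recovered 38 of 50 genes at a simulated fold of 1.25 and 43 of 50 at 1.5. It recovered 48 of 50 at 2 and 50 of 50 at 4, with 6 false calls in all. The simulation gave every library the spread of the untreated ones and changed only these genes, as many up as down. In the data the MGO libraries were noisier and 83.1% of genes were called. The simulated recovery and false calls therefore do not carry over to this comparison. Without molecular identifiers, any PCR copies left in are counted as reads, and whether Picard removed them is not stated in the sources used here. The edgeR intervals include the spread among these libraries, while floors from counts cover counting error only.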

Additional observations from a re-analysis of the deposited data

How the results depend on the processing

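Counts of members called higher and lower were 9 and 37, and 9 and 37 with RLE scaling or limma voom, 8 and 39 with library size scaling, 8 and 40 with no filter, 7 and 26 of 39 tested with 1 CPM required in every library, 8 and 35 in DESeq2, 9 and 33 of 50 tested with thinned untreated libraries, and 9 and 36 without both libraries numbered 1. Leaving out 1 library gave 8 to 9 higher and 35 to 37 lower members, 6947 to 7441 higher and 6919 to 7444 lower genes in all, and 3 to 4 higher and 23 to 24 lower partner genes. Against a fold of 1.5, the counts were 5 higher and 30 lower members, 4363 higher and 3942 lower genes in all, and 12 lower partner genes, since that test asks for a larger change. No called member turned its sign under an alternative that tested it. NKX2-5, which was not called, was at -0.083 with library size scaling, -0.16 with no filter (adjusted p = 0.00816, edgeR), -0.022 in DESeq2, and between -0.037 and 0.025 with 1 library left out. ZFHX2 was at -0.0026 with library size scaling and -0.080 with no filter. Library size scaling moved the median log2 fold change of all genes to -0.10, against 0.01 with TMM. The cause of these moves was not tested.

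Numbers 1 and 4 occur in both groups, and libraries with the same number deviated from their group means with correlations of 0.020 and -0.0078. With 3 libraries in a group this cannot tell whether same-numbered libraries were prepared together, and the sources used here do not say. With the replicate block, 9 members were higher and 34 lower, on 1 residual degree of freedom. MGO depth limits low members such as SIX6, LHX3 and LHX5, since 3 counts are 0.139 to 0.156 CPM in an MGO library and 0.0653 to 0.0732 CPM in an untreated one.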

Other observations

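Genes of the early kidney programme outside the members fell more often than they rose. Of 22 tested genes of this programme, 17 fell, 3 rose and 2 were not called by edgeR, with a median log2 fold change of -0.71. Over all genes tested, 41.2% were called lower and 41.8% higher. GFRA1, the co-receptor for GDNF, averaged 11.4 ± 1.11 CPM in MGO and 48.9 ± 1.05 CPM in untreated cells (SD, n = 3 each, log2 fold change -2.10). BMP7, a survival signal of nephron progenitors, averaged 16.7 ± 1.38 CPM in MGO and 49.2 ± 0.674 CPM in untreated cells, and CCND1, a cell-cycle cyclin, averaged 15.0 ± 1.11 CPM in MGO and 52.7 ± 2.17 CPM in untreated cells. SALL2, a zinc finger factor, averaged 48.8 ± 3.27 CPM in MGO and 98.5 ± 1.93 CPM in untreated cells. WNT4, WNT11 and TFAP2A rose, and GDNF and CITED1 were not called. The log2 fold changes of BMP7, CCND1 and SALL2 were -1.56, -1.82 and -1.01.

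Other homeobox genes also fell more often than they rose, where 41.2% of all genes tested were called lower and 41.8% higher. Of the 11 tested TALE genes, whose products pair with many homeodomain proteins, 9 fell and 2 rose, with a median log2 fold change of -0.71. MEIS2 averaged 11.2 ± 0.691 CPM in MGO and 34.5 ± 1.18 CPM in untreated cells (log2 fold change -1.62), and PBX2 averaged 77.2 ± 1.65 CPM in MGO and 127 ± 3.89 CPM in untreated cells (-0.71). PBX4 and TGIF2 rose, and PBX4 averaged 5.68 ± 0.668 CPM in MGO and 1.30 ± 0.261 CPM in untreated cells (2.13). Of 69 further tested homeobox genes, 42 fell, 14 rose and 13 were not called, with a median of -0.55. POU3F2, a neural factor, averaged 8.93 ± 1.33 CPM in MGO and 70.3 ± 1.55 CPM in untreated cells (log2 fold change -2.97). Its relative POU3F3 averaged 6.38 ± 0.698 CPM in MGO and 44.1 ± 0.841 CPM in untreated cells (-2.79). ADNP2 rose and averaged 337 ± 19.5 CPM in MGO and 118 ± 1.22 CPM in untreated cells (1.51). Of 35 tested HOX genes, 28 fell, 2 (HOXB2 and HOXC10) rose and 5 (HOXA9, HOXB4, HOXB9, HOXC9 and HOXD4) were not called, with a median of -1.02, against 37, 9 and 5 of the 51 tested members with a median of -1.12. Whether these lists differ from one another was not tested.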
